A study of Mus musculus with 4 samples.

Results

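Thymocytes whose T cell receptor (TCR) beta chain carried hydrophobic residues at the centre of its CDR3 made up 249 of the 17471 cell barcodes with 1 alpha and 1 beta chain. They were chosen from the receptor contigs alone. Positions 6 and 7 of the beta CDR3, counted from the first cysteine as position 1, both had to be phenylalanine, isoleucine, leucine, methionine, valine, tryptophan or tyrosine. The barcode also had to hold at least 2000 UMIs (unique molecular identifiers, each standing for 1 captured RNA molecule), at least 500 genes and at most 10% mitochondrial UMIs in the expression library. The comparison class held 12629 barcodes with neither position hydrophobic, and 4593 barcodes with 1 hydrophobic position lay between the classes.

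The CDR3 is the stretch of a TCR chain where the V, D and J segments join, and its centre sits over the peptide in the groove of an MHC molecule. Hydrophobic residues at positions 6 and 7 of the beta CDR3 are known to favour binding to self peptides and are known to be more frequent in regulatory T (Treg) cells than in conventional CD4 T cells. In the thymus, strong self-reactivity is known to lead towards deletion, or towards agonist-selected lineages such as Treg cells and natural killer T cells.

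The study asked how cGAS, a sensor of cytosolic DNA, affects the transcription of CD4+CCR7+ thymocytes, which have passed positive selection. It sequenced 1 expression library and 1 TCR library from Cd4Cre mice (WT) and the same from Cd4Cre Cgasfl/fl mice (Cgas KO). Both genotypes carry Cre under the Cd4 promoter, which switches on in developing T cells once they express CD4 and CD8 together, so other cell types keep Cgas. Neither the ages nor the numbers of mice are stated in those sources that were used, and genotypes cannot be tested against each other with a single library each.

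The WT library gave 123 members among 8287 paired barcodes, a share of 1.48% (95% exact binomial interval 1.24 to 1.77%). The Cgas KO library gave 126 among 9184, a share of 1.37% (1.14 to 1.63%), and the intervals overlap. All intervals printed here cover counting error only. Of 126 and 134 TCR barcodes that met the sequence rule, 3 and 8 had under 2000 UMIs and were left out. Members had median totals of 4767 and 4358.5 UMIs, close to 4838 and 4381 in the comparison class.

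Barcodes that shared a whole receptor were far more frequent in the Cgas KO library. There 1004 of 9184 paired barcodes (10.9%) came in 502 pairs with identical alpha and beta CDR3 nucleotides, against 27 of 8287 (0.326%) in WT. Barcodes of such pairs had a median of 3092.5 UMIs, against 4530 for the others of the library. Members included 7 such pairs (14 of 126 barcodes) in Cgas KO and 1 pair in WT. Counting 1 barcode per receptor left 122 and 119 members, and shares of 1.47% and 1.37%. A further 106 barcode sequences occurred in both libraries, 5 of them WT members and 1 a Cgas KO member, and none carried the same beta CDR3 in both.

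The 5 commonest residue pairs are shown first, each by 1 CDR3 coding sequence, because the pair defines the class. Each is held by 1 or 2 barcodes and stands as an example of its pair. Codons 6 and 7 are in capitals, and all sequences run 5′ to 3′ as the authors' contig files give them.
tyrosine-tryptophan: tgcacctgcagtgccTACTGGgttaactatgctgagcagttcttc
valine-leucine: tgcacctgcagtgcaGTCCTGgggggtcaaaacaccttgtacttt
valine-tryptophan: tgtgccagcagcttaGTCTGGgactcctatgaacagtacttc
leucine-leucine: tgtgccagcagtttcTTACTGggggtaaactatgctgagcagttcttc
tryptophan-valine: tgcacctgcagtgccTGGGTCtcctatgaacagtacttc
comparison, serine-glutamine: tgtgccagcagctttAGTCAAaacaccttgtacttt

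The comparison sequence was the most frequent of its class, with 6 barcodes from 5 receptors. No member sequence was held by more than 2 barcodes. Only the valine-tryptophan sequence above was found in both libraries with identical nucleotides, joined to TRBV3 and TRBJ2-7.

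Beta CDR3s were compared between the libraries in classes that differ widely in size. Translated, 5 member CDR3s occurred in both, which is 4.2% of the 119 distinct ones in each library. The comparison class shared 326, which is 5.72% of the WT and 5.40% of the Cgas KO sequences. Besides the valine-tryptophan sequence above, the other shared ones are printed here because only these beta CDR3s of the class had the same amino acids in both genotypes. Each is given by the coding sequence of 1 barcode, and the other library encoded it with other nucleotides.
TRBV19, TRBJ2-3, valine-tryptophan: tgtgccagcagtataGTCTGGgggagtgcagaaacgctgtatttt
TRBV19, TRBJ2-5, tyrosine-tryptophan: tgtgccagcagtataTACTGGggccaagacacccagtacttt
TRBV16, TRBJ2-7, isoleucine-tyrosine: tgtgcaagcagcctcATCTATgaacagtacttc
TRBV16, TRBJ2-5, tyrosine-tryptophan: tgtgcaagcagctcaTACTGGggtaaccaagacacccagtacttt

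All 5 carried a TRBJ2 segment, 4 of them had tryptophan at position 7, and 4 used the same V and J segments in both libraries.

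Tryptophan at position 7 was the commonest single choice among members, in 45 of 123 WT and 44 of 126 Cgas KO barcodes. Leucine came next at that position, in 34 and 41. At position 6 valine led, with 30 and 40 barcodes, followed by leucine with 30 and 29 and tyrosine with 25 and 22. Methionine was rare, with 3 barcodes at position 6 and 1 at position 7.

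Of the pairs, tyrosine-tryptophan was held by 20 WT and 15 Cgas KO barcodes and valine-leucine by 9 and 21. Valine-tryptophan was held by 13 and 13, leucine-leucine by 15 and 10, and tryptophan-valine by 9 and 7. The grid of residue pairs shows these as its fullest cells, and no member had tryptophan at both positions. The comparison class was led by the pairs glycine-glycine (8.36%), threonine-glycine (7.91%) and glycine-threonine (6.09%).

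**Figure D1:**
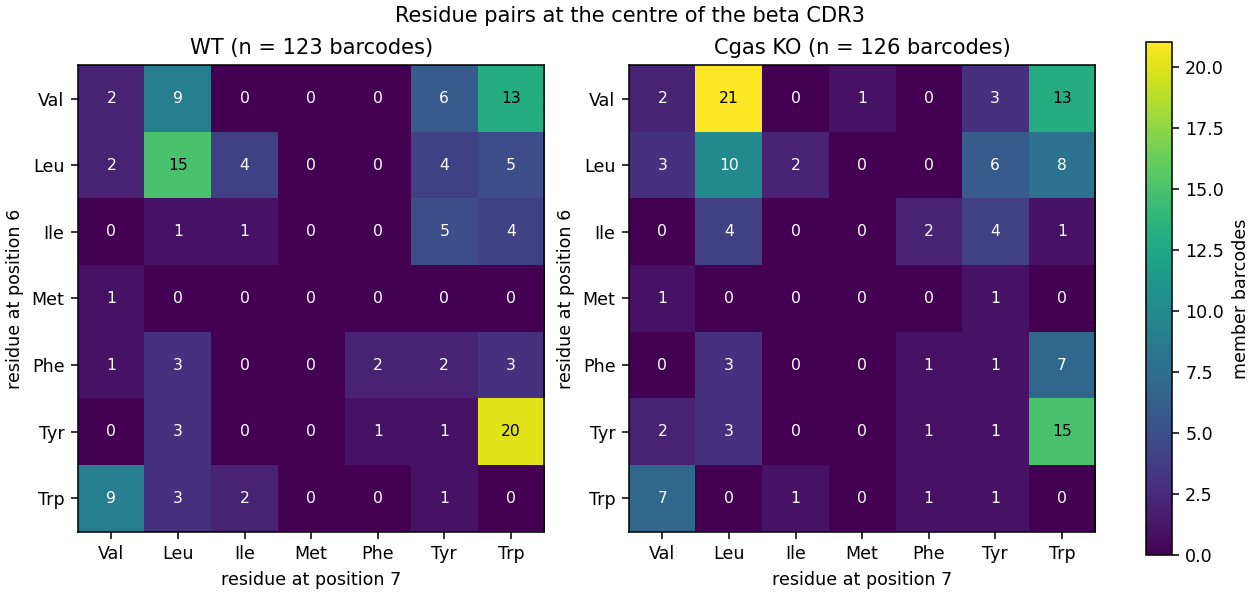
Number of member barcodes for each residue at position 6 (rows) and position 7 (columns), for WT (123 barcodes) and Cgas KO (126 barcodes). Tyrosine before tryptophan leads in WT with 20 barcodes and valine before leucine leads in Cgas KO with 21.

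The members' beta chains used TRBJ2 segments more often than the comparison class. A TRBJ2 segment was used by 106 of 123 WT members (86.2%, 78.8 to 91.7%) and 116 of 126 Cgas KO members (92.1%, 85.9 to 96.1%). In the comparison class the shares were 62.2% (60.9 to 63.4%) and 63.2% (62.0 to 64.4%), so neither member interval reaches that of its comparison. Barcodes with 1 hydrophobic position had 82.5% and 81.5%. TRBJ2-7 was the commonest segment, in 27.6% and 28.6% of members against 16.4% and 16.3% of the comparison class. TRBJ1-1 was the scarcest relative to it, in 2.44% and 2.38% of members against 12.5% and 11.3%.

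The TRBD2 segment lies downstream of the TRBJ1 cluster and joins only TRBJ2 segments. The files annotate a D segment for 14 WT and 10 Cgas KO members, and 12 and 9 of these were TRBD2 (85.7 and 90.0%). TRBD2 made up 20.8% and 23.8% of the D segments annotated in the comparison class. The rule uses 2 positions that D-derived bases often encode, so J and D use is tied to the rule itself and is given as a description. Each CDR3 was matched from its ends to the majority sequence of its V and of its J segment. Those sequences were built from the CDR3s of these libraries, without germline references. In 87.0% of WT and 88.9% of Cgas KO members neither codon lay wholly inside a matching stretch.

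The rule did not read positions 5, 8 and 9, but they lie beside or near the bases that it selects, which the D segment often encodes. Their residues are therefore not independent of the rule and are given as a description as well. Position 8 held glycine in 52.8% (43.6 to 61.9%) of WT and 57.1% (48 to 65.9%) of Cgas KO members. The comparison class had it in 28.6% (27.4 to 29.7%) and 28.3% (27.3 to 29.4%). Position 9 held glycine in 24.4% of WT and 37.3% of Cgas KO members, against 19.2% and 17.6%. Position 5, on the other side of the centre, was hydrophobic in 39.8% and 39.7% of members against 31.1% and 30.7%. For position 5 the intervals of the WT members (31.1 to 49.1%) and their comparison (30.0 to 32.3%) overlap.

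Member CDR3s were also longer. Their mean length was 14.2 residues in WT and 14.4 in Cgas KO, against 13.8 in each comparison class. A length of 16 residues or more was found in 19.5% (12.9 to 27.6%) and 26.2% (18.8 to 34.8%) of members, against 9.10% and 8.70%. Length 13 was held by 16.3% and 7.14% of members against 23.3% and 23.2%, and length 11 by 7.32% and 8.73% against 3.98% and 3.60%. The plot of lengths and TRBJ use shows these shares for each length.

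**Figure D2:**
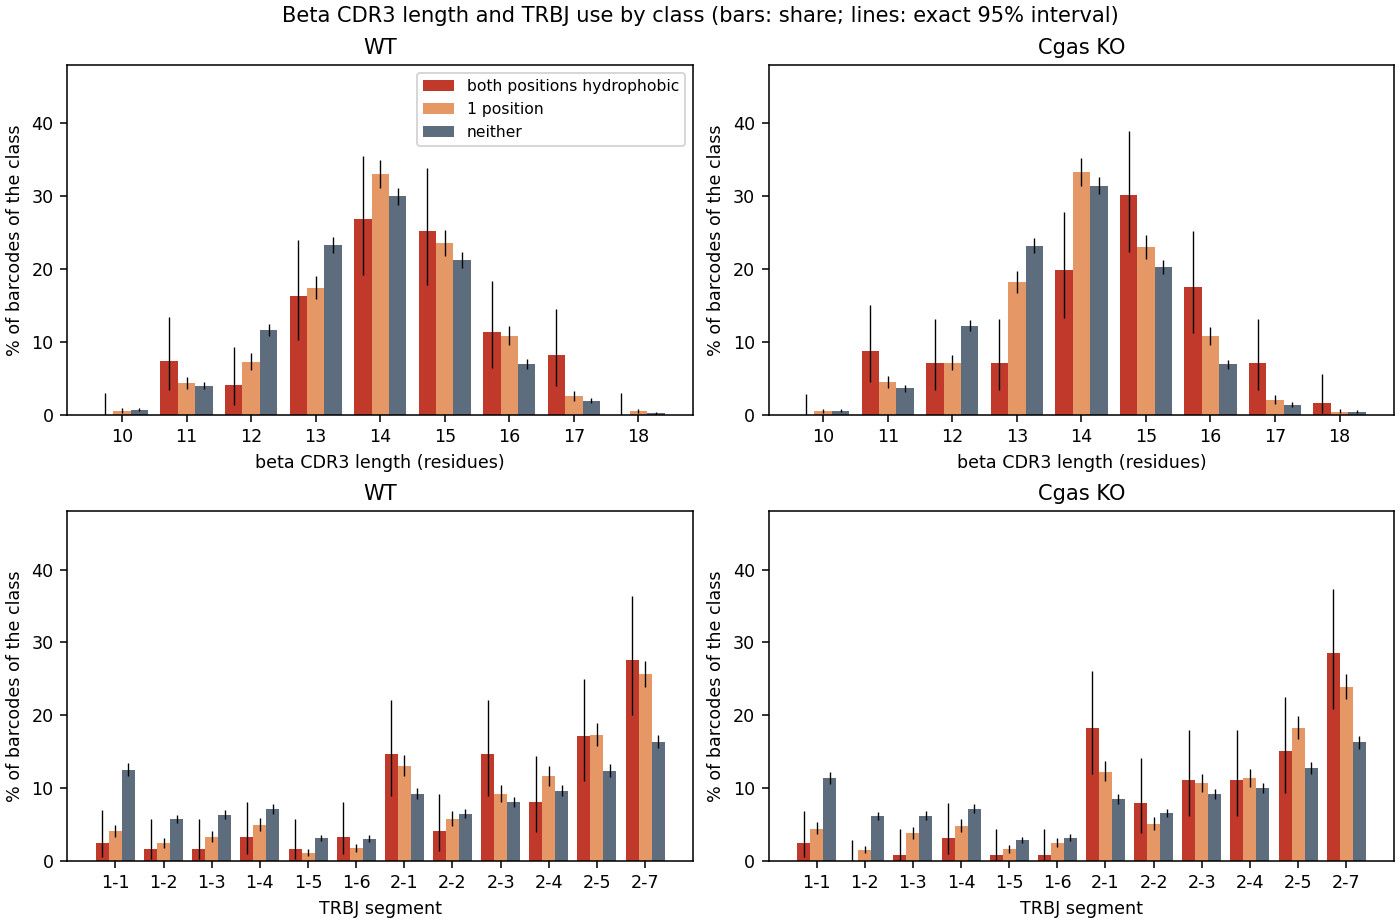
Share of barcodes (%) by beta CDR3 length in residues (top) and by TRBJ segment (bottom) in the WT and Cgas KO libraries, for barcodes with both positions hydrophobic, 1 position and neither, with exact 95% intervals. Members stand above the neither class at 16 and 17 residues and at TRBJ2-7, and below it at TRBJ1-1.

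Most V segments were used alike within the width of the intervals. TRBV14 was in 4.07% and 3.97% of members against 1.48% and 1.87% of the comparison class, and TRBV12-1 in 6.50% and 4.76% against 3.53% and 3.0%. TRBV3 was in 8.13% of WT and 15.1% of Cgas KO members, against 8.67% and 8.57%. With 1 barcode per receptor, TRBV3 was in 8.20% (4 to 14.6%) and 14.3% (8.55 to 21.9%) of members, and these intervals overlap. TRBV1 encodes the start of 3 of the 5 example sequences above, which were taken in alphabetical order where barcode counts tied. It made up 3.25% and 6.35% of members against 6.68% and 6.67%.

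The alpha chain took no part in the rule. Both central alpha positions were hydrophobic in 2 WT members and 0 Cgas KO members, 1.63% and 0%, with an exact upper bound of 2.89% for the latter. In the comparison class the share was 1.02% and 0.929%. At this depth no difference in the alpha chain's centre was detectable.

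TRAJ use leaned towards high-numbered segments, which lie nearest to the V segments and are known to be used in early rounds of alpha rearrangement. TRAJ42 to TRAJ58 were used by 30.1% (22.1 to 39.0%) of WT and 31.7% (23.7 to 40.6%) of Cgas KO members. In the comparison class they were used by 25.1% (24 to 26.3%) and 22.8% (21.8 to 23.8%). Barcodes with 1 hydrophobic position lay between, at 28.2% (26.3 to 30.1%) and 27.7% (25.9 to 29.5%). The order was the same in both libraries, but the WT member interval covers its comparison value. The Cgas KO member interval lies above its comparison value and overlaps the upper end of the comparison interval. With 1 barcode per receptor the members had 30.3% and 31.1%, against 25.2% and 22.5%, and the intervals overlap in both libraries. The boundary at TRAJ42 was set with results of these data known. With TRAJ35 or TRAJ50 as the boundary, members were again above the comparison class in both libraries, at 43.9% and 42.9% against 35.9% and 33.9%, and at 16.3% and 15.1% against 11.1% and 9.63%.

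**Figure D3:**
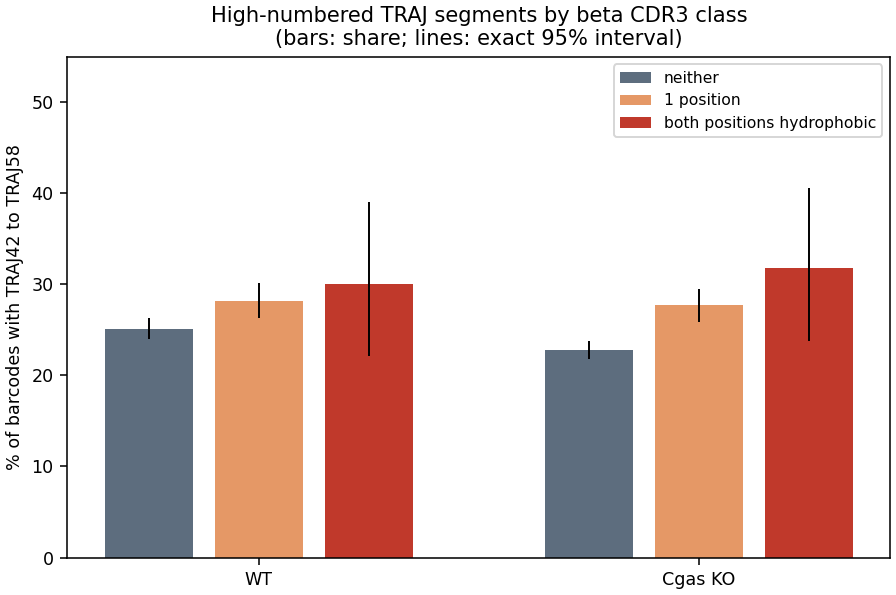
Share of barcodes (%) using TRAJ42 to TRAJ58 by beta CDR3 class in each library, with exact 95% intervals. Both libraries step up from neither (25.1 and 22.8%) to 1 position (28.2 and 27.7%) to both positions (30.1 and 31.7%), with wide member intervals.

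The members carried transcripts of the sorted cells. Cd3d, part of the TCR signalling complex, reached 1140 CPM (UMIs of the gene scaled to a common total for each sum) in WT members and 1114 CPM in Cgas KO members, against 1059 and 1026 CPM in the comparison sums. Ccr7, the receptor of the sort, stood at 671 and 687 CPM, against 628 and 732 CPM. Cd4 stood at 285 and 237 CPM, against 252 and 255 CPM. Cd8b1 was present although the sort was for CD4, at 140 and 213 CPM against 152 and 143 CPM. Cgas itself gave 1 UMI in WT and 2 UMIs in Cgas KO members, too few to read, and the labels do not say whether its 3′ end lies in the deleted part. The macrophage markers had 0 UMIs in members. Markers of B, erythroid, thymic epithelial and NK cells summed to between 0 and 11.2 CPM in members. The 8 dendritic cell markers summed to 166 and 118 CPM, against 162 and 156 CPM, of which Cst3, a gene not limited to dendritic cells, gave 86.1 and 70.3 CPM in members.

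Foxp3, the lineage factor of Treg cells, was sought first, given the background on hydrophobic CDR3 centres. With every barcode thinned at random to 2000 UMIs, 4 of 123 WT members (3.25%, 0.893 to 8.12%) and 3 of 126 Cgas KO members (2.38%, 0.494 to 6.80%) had a Foxp3 UMI. In the comparison class 1.88% (1.55 to 2.26%) and 1.15% (0.911 to 1.44%) did. The ratio over both libraries was 1.88 with an interval of 0.745 to 3.95, so at this depth the data allow both no difference and an excess of up to 3.95-fold. Without thinning the shares were 4.07% and 3.17%, and the ratio fell to 1.31 (0.593 to 2.51). With 1 barcode per receptor the thinned ratio was 1.93 (0.767 to 4.07). Barcodes with Cd8b1 and no Cd4 UMI before thinning were taken as a set expected to hold little Foxp3. After thinning, 1.12% (WT) and 0.572% (Cgas KO) of them had a Foxp3 UMI, to be set against the thinned shares above. Their median depths before thinning were 4642 and 4167 UMIs. They give no strict floor, since the sort was for CD4. Before thinning, only 65.2% and 63.3% of the comparison class had a Cd4 UMI.

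Barcodes with 1 hydrophobic position gave a ratio of 1.37 (1.06 to 1.76) over both libraries, from 2.44% and 1.68% of barcodes. Within the WT library it was 1.30 (0.921 to 1.81) and within Cgas KO 1.46 (0.967 to 2.16), and without thinning it was 1.09 (0.886 to 1.33) over both. The direction was upward in each library for both classes, and the size depended on the thinning.

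The 9 members with a Foxp3 UMI before thinning differed from each other in receptor and had TRBJ2 segments in 8 cases. A tryptophan stood at 1 of the central positions in 6 of the 9. The WT barcode with leucine-tryptophan, TRBV5 and TRBJ2-5 held the most Foxp3, 7 UMIs, with 9 UMIs of Ikzf2, which encodes Helios. It had 0 UMIs of Ctla4, Izumo1r and Cd4. A Cgas KO barcode with phenylalanine-leucine and TRBJ2-3 held 4 Foxp3, 16 Ikzf2, 6 Ctla4, 8 Tnfrsf18 and 0 Cd4 UMIs. Several of the 9 held a single Foxp3 UMI. Free RNA also held Foxp3, at 14.1 CPM (WT) and 11.7 CPM (Cgas KO), and its part here was not tested. Ikzf2 was seen in 5 of the 9, Ctla4 in 5, Tnfrsf18 in 5, Izumo1r in 4 and Cd4 in 5. None of the 9 had a UMI of Il2ra, the high-affinity IL-2 receptor chain. Across both libraries 161 paired barcodes had UMIs of both Foxp3 and Il2ra and 0 of them were members, which allows a share of up to 2.27% by the upper bound of the exact interval. The TRBV19 tyrosine-tryptophan sequence printed above belonged, in Cgas KO, to one of the 9, with 1 Foxp3 UMI.

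Of the 496 barcodes with a Foxp3 UMI, 9 were members (1.81%, 0.833 to 3.42%), against 1.43% (1.25 to 1.61%) of all paired barcodes. The WT library held 5 of them among 280 such barcodes, and the Cgas KO library 4 among 216. Members were 1.23% (0.963 to 1.55%) of barcodes with an S1pr1 UMI, a mark of cells ready to leave the thymus. They were 0.999% (0.480 to 1.83%) of those with an Egr2 UMI, a gene induced by TCR signals. Each interval covers the share among all paired barcodes.

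For Helios, Cd8b1 and Cd8a the members' intervals over both libraries covered 1. In thinned counts 19 of 123 WT members (15.4%) and 27 of 126 Cgas KO members (21.4%) had an Ikzf2 UMI, against 15.9% and 18.1%, and the ratio over both libraries was 1.09 (0.792 to 1.45). With 1 hydrophobic position Ikzf2 gave 1.14 (1.01 to 1.28) in WT and 1.01 (0.900 to 1.12) in Cgas KO. Cd8b1 was seen in 19.5% and 18.3% of members against 17.0% and 15.8%, a ratio of 1.15 (0.846 to 1.54). With the comparison class weighted to the members' TRBJ segments and lengths, the Cd8b1 ratio was 0.970, on the other side of 1, while that of Foxp3 was 2.03 and that of Ikzf2 1.05. Cd8a was seen in 13.8% and 15.9% of members against 12.8% and 11.7%, a ratio of 1.21 (0.852 to 1.68). For Cd8a the class with 1 hydrophobic position gave 1.17 (1.07 to 1.29), with 14.9% and 13.8% of barcodes, and it was above 1 in each library. Without thinning, Cd4 was seen in 69.9% (61.0 to 77.9%) of WT and 54.0% (44.9 to 62.9%) of Cgas KO members. The comparison class had 65.2% and 63.3% (62.1 to 64.5%). The Cgas KO comparison value lies above the member interval, though the intervals overlap, and the directions were opposite. In the plot of ratios Bcl2l11, which encodes the pro-apoptotic protein BIM, was the gene whose member interval cleared 1 in 1 library. It was seen in 10.6% of WT and 21.4% of Cgas KO members against 13.7% and 13.4%, ratios of 0.770 (0.408 to 1.32) and 1.60 (1.05 to 2.35). Without thinning the Cgas KO ratio was 1.23 (0.865 to 1.69).

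**Figure D4:**
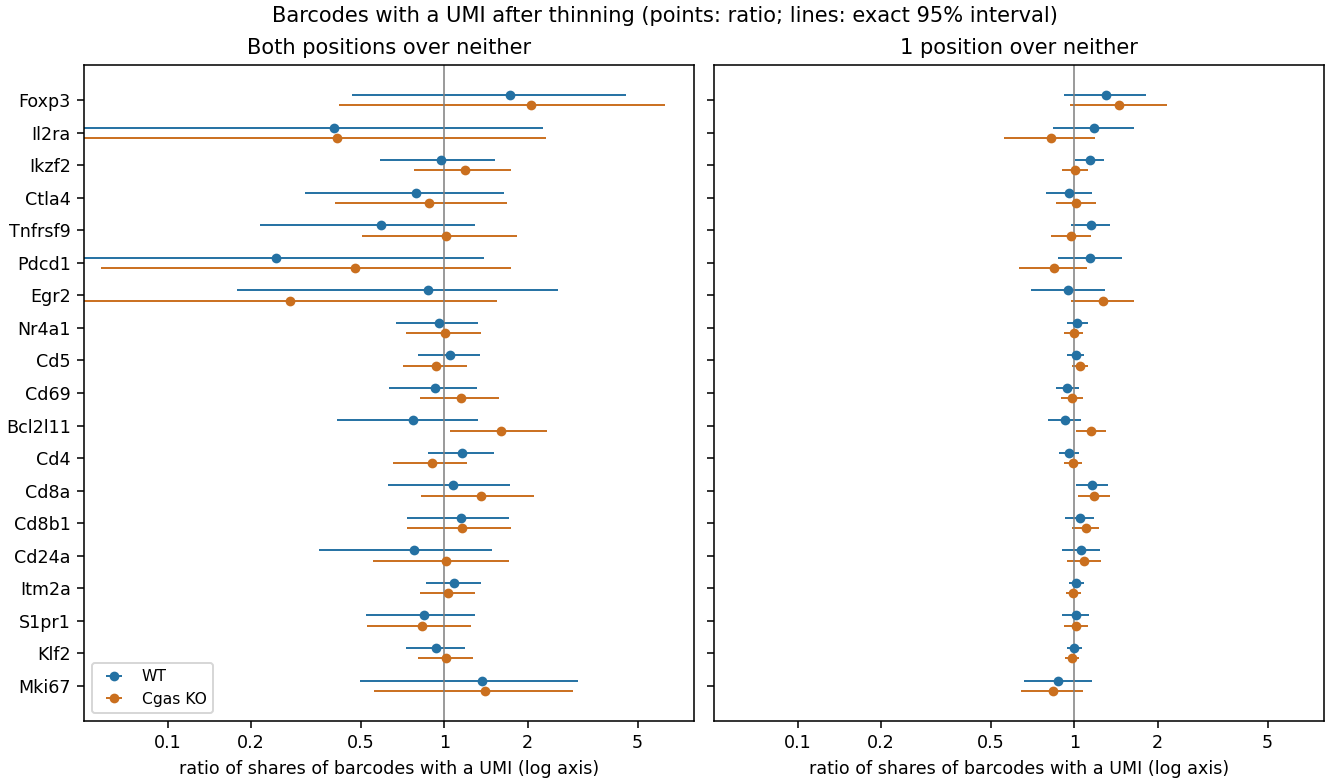
Ratio of the share of barcodes with a UMI, on a log axis, for both positions hydrophobic over neither (left) and 1 position over neither (right), after thinning to 2000 UMIs, in WT and Cgas KO with exact 95% intervals, which run past the left edge where a gene had 1 member barcode. Foxp3 lies to the right of 1 in both panels and both libraries, and most member intervals cover 1.

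Subsets of members were compared by their residues. Without thinning, Foxp3 was seen in 6 of 114 members with a tryptophan (5.26%, 1.96 to 11.1%) and in 3 of 135 without (2.22%, 0.461 to 6.36%). It was seen in 8 of 170 members with an aromatic residue and in 1 of 79 whose residues were both aliphatic. Ikzf2 was seen in 27.2% and 26.7% of members with and without tryptophan, and Cd8b1 in 23.7% and 31.9%. These intervals all overlap.

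To look across all genes, UMIs were summed over members and over the comparison class in each library and tested with edgeR's quasi-likelihood test, with the library as a block. Of 13280 genes tested, 1 was higher in members at an adjusted p under 0.05, which is 0.00753% of them, and 0 were lower, which is 0%. At an unadjusted p under 0.05, 189 genes were higher and 413 lower. That split depended on the scaling, with 249 and 318 under DESeq2's size factors and 279 and 233 under library totals. DESeq2's own test called 1 gene higher and 0 lower. Both tests rest on 2 libraries that also differ in genotype. The edgeR fit had 1 residual degree of freedom, against 20.6 prior ones that carry a spread pooled over genes. Each of its p-values therefore rests mostly on counting error and that pooled spread. It holds little of how far the gene's own class difference varied between the libraries.

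The p-values of this fit can be too small. The same fit, reported after the data were seen, on the sums of barcodes with 1 hydrophobic position called 31 of 13888 genes higher (0.223%) and 59 lower (0.425%) against the comparison class. Its smallest adjusted p, 2.87e-80, was for Actb, which encodes a cytoskeletal actin, at a log2 ratio of 0.0169. The members' p-values come from a fit of the same form. Plac8 was among the genes called higher there, at a log2 ratio of 0.88, and Top2a among those lower, at -0.31.

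The gene called was Plac8, which encodes a small cysteine-rich protein found in several kinds of lymphocyte. It gave 8 UMIs in 3 of 123 WT members and 30 UMIs in 4 of 126 Cgas KO members, that is 11.9 and 47.9 CPM against 3.31 and 2.44 CPM. The log2 ratio was 3.28 (SE 0.494, adjusted p = 0.0165). A single Cgas KO barcode held 22 of these 38 UMIs. Without it the ratio was 2.08, the adjusted p rose to 0.501, and 0 genes were called in either direction, with 177 higher and 434 lower at an unadjusted p under 0.05.

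That barcode had an unusual receptor for this sort. Its alpha chain was TRAV11 joined to TRAJ18, the invariant chain known from natural killer T cells, with a beta chain annotated TRBV12-2+TRBV13-2 and TRBJ2-7. The beta CDR3 is printed because the lone call of the test turns on it.
leucine-leucine, TRBV12-2+TRBV13-2: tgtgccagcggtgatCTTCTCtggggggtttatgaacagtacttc

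The barcode held 21886 UMIs, the most of any Cgas KO member. It held 11 UMIs of Zbtb16, which encodes PLZF, the lineage factor of natural killer T cells, with 7 of Il4 and 10 of Il13, and 0 of Cd4, Cd8a and Foxp3. No other member had a Zbtb16 UMI. TRAV11 with TRAJ18 was found in 2 WT and 3 Cgas KO barcodes of the comparison class, and all 5 had UMIs of Zbtb16 and Plac8. The class with 1 hydrophobic position held 1 and 3 such barcodes. So 1 of 249 members was of this kind, against 5 of 12629, and with 1 barcode no difference in frequency can be read. These values were chosen after the barcode's counts were seen.

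**Figure D5:**
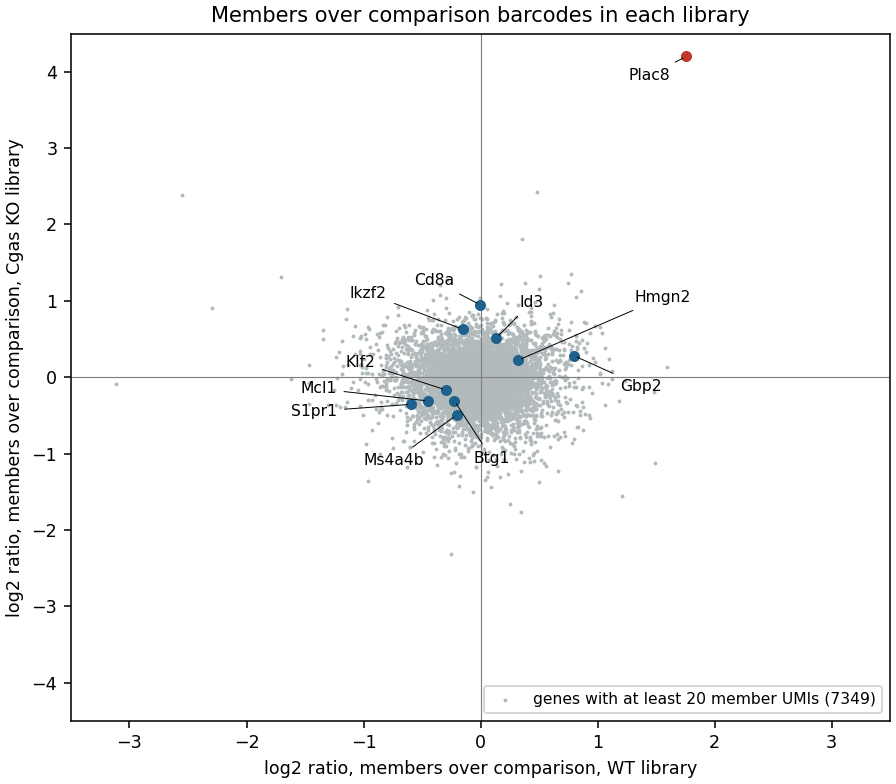
Log2 ratio of members over the comparison class in the WT library (horizontal) and the Cgas KO library (vertical) for the 7349 genes with at least 20 member UMIs. Plac8, in red, stands alone at the upper right with 1.76 and 4.20, and genes in blue were named by rule and did not pass.

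Genes of late thymocyte maturation stood lower in members in both libraries, though none passed the test. Of 18 genes on the mature list, 13 were lower in both libraries and 0 higher in both, with a median log2 ratio of -0.18. Over all genes tested 30.4% were lower in both and 20.3% higher in both, with a median of -0.03. Klf2, the factor that drives egress genes, stood at 811 CPM in the WT members and 951 CPM in those of Cgas KO, against 963 and 1048 CPM. Its log2 ratio was -0.23 (SE 0.0524, adjusted p = 0.623). S1pr1, the egress receptor under its control, stood at 96.5 and 125 CPM against 141 and 156 CPM (log2 ratio -0.47, adjusted p = 0.879).

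Ms4a4b, a membrane protein of mature T cells, stood at 428 and 344 CPM against 477 and 474 CPM (log2 ratio -0.34). H2-K1, an MHC class I chain, stood at 1325 and 1139 CPM against 1443 and 1237 CPM. For each of these 4 genes both member sums lay below the sum of their own library. The list summed to 5309 and 5083 CPM in members against 5755 and 5695 CPM, and the 5 barcodes with most of it held 12 and 10.9% of the members' UMIs. The class with 1 hydrophobic position had 5734 and 5536 CPM. Under the other settings the list's median ran from -0.22 to -0.06.

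Btg1 and Mcl1, a brake on proliferation and a survival protein, had the smallest p among genes that stood lower. Btg1 stood at 771 and 740 CPM in members against 873 and 899 CPM, a log2 ratio of -0.27, and Mcl1 at 279 and 286 CPM against 369 and 348 CPM, a log2 ratio of -0.38. Both had an adjusted p of 0.406. Mapkapk3, a kinase downstream of p38, stood at 29.7 and 24 CPM against 52.4 and 47.2 CPM from 35 member UMIs.

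Cell cycle genes stood higher in the members' sums, again without a call. Of 20 genes, 12 were higher in both libraries and 0 lower in both, with a median log2 ratio of 0.31, which ran from 0.16 to 0.66 under the other settings. Top2a, which untangles replicated DNA, stood at 203 and 129 CPM against 121 and 127 CPM. Ncapd2, a condensin subunit, stood at 54.9 and 57.5 CPM against 33.4 and 33.3 CPM, and Ccna2, a cyclin of S and G2 phase, at 52.0 and 41.5 CPM against 27.5 and 29.0 CPM. These sums rested on few cells. The 5 barcodes with the most list UMIs held 50.1% of them among WT members and 40.9% among Cgas KO members. The list summed to 3804 and 3743 CPM in members, and to 2096 and 2455 CPM without those 5. The comparison class had 3226 and 3328 CPM, though 5 barcodes are a far smaller part of that class. Barcodes with 1 hydrophobic position stood below the comparison class, at 2996 and 3155 CPM. At least 10 list UMIs were found in 44.7% of WT members against 36.9%, and in 30.2% of Cgas KO members against 31.3%. A Mki67 UMI, a mark of cycling cells, was seen after thinning in 4.88% and 5.56% of members against 3.56% and 3.97%, with intervals that overlap.

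Among the other genes with the smallest p, Hmgn2, a chromatin protein, stood at 512 and 494 CPM in members against 398 and 416 CPM. Gbp2, an interferon-induced GTPase, stood at 123 and 67.1 CPM against 68.7 and 54.1 CPM. Tuba1b, a tubulin, stood at 812 and 876 CPM against 700 and 727 CPM. H2az1, a histone variant, stood at 742 and 679 CPM against 589 and 608 CPM. Their adjusted p ran from 0.859 to 0.907.

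Few genes of TCR signalling and agonist selection went the same way in both libraries. On the list of 24 TCR-induced genes, 2 were higher in both libraries and 3 lower in both. Over its 20 genes with at least 20 member UMIs, the fit gave 6 higher and 14 lower. Their median log2 ratio was -0.06, and it ran from -0.23 to -0.02 under the other settings. Nr4a1, an immediate early gene, stood at 288 CPM in WT members against 388 CPM and at 483 CPM in Cgas KO members against 421 CPM, so it went opposite ways. Cd5, whose level is known to follow the strength of self-reactivity, stood at 566 and 594 CPM against 504 and 499 CPM (log2 ratio 0.17, adjusted p = 0.978). Egr2 stood at 7.42 and 9.59 CPM against 18.2 and 17.2 CPM, from 11 member UMIs. Of the 20 genes of agonist selection and deletion 4 were higher in both and 3 lower in both. Pdcd1, which encodes PD-1, stood at 19.3 and 52.7 CPM against 22.8 and 21.3 CPM, with 30.4% of its 46 member UMIs in 1 barcode.

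On the Treg list of 20 genes, 3 were higher in both libraries and 4 lower in both. Over its 13 genes with at least 20 member UMIs the median log2 ratio was 0.03. It ran from -0.20 to 0.07 under the other settings. The lowest was among barcodes with a Cd4 and no Cd8b1 UMI, where 2 genes were higher and 11 lower. Izumo1r stood at 187 and 149 CPM against 225 and 180 CPM, from 219 UMIs (log2 ratio -0.31, adjusted p = 0.978). Foxp3 stood at 17.8 and 14.4 CPM in members against 11.4 and 7.92 CPM, from 21 UMIs of which 33.3% lay in 1 barcode (log2 ratio 0.70, SE 0.380, adjusted p = 0.978). Il2ra stood at 7.42 and 7.99 CPM against 15.4 and 13.7 CPM, from 10 UMIs (log2 ratio -0.95, adjusted p = 0.978). Tnfrsf18 and Tnfrsf4, costimulators known from Treg selection, lay near their comparison levels, Tnfrsf18 at 148 and 161 CPM against 144 and 141 CPM, and Tnfrsf4 at 175 and 160 CPM against 156 and 162 CPM.

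Ikzf2 stood at 203 CPM in WT members, below 219 CPM, and at 371 CPM in Cgas KO members, above 235 CPM. Cd8a likewise stood at 160 CPM against 156 CPM in WT and at 265 CPM against 135 CPM in Cgas KO (log2 ratio 0.50, adjusted p = 0.907). Of the 8 CD4 lineage genes 4 were lower in both libraries and 0 higher in both. Of 8 CD8 lineage genes tested, 2 were lower in both and 0 higher in both. Over the 5 with at least 20 member UMIs, 0 were lower in both and 0 higher in both, and the median log2 ratio was 0.20.

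The remaining lists held no call. Higher in both libraries and lower in both were 3 and 4 of the 15 semi-mature genes, 1 and 7 of the 12 double-positive stage genes, and 10 and 4 of the 23 interferon-stimulated genes tested. The double-positive list had a median log2 ratio of -0.90, but of 0.36 over its 4 genes with at least 20 member UMIs, and that of the interferon-stimulated list was 0.0037. The counts were 2 and 6 of the 10 genes tested of the cGAS-STING pathway (median -0.12), 4 and 5 of the 14 CTCF and cohesin genes, and 3 and 7 of the 22 TCR signalling genes. Of the 9 unconventional T cell genes tested, 0 were higher in both and 1 lower. Ctcf, the chromatin factor in the study's title, stood at 168 and 177 CPM in members against 155 and 163 CPM. No gene of any list passed the test.

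Between genotypes members could be compared only as values of 1 library each. Of 2310 genes with at least 100 UMIs over both member sums, 39 (1.69%) stood 1.5-fold or more higher in Cgas KO members and 43 (1.86%) as much lower. By the same minimum, 84 of 11533 genes (0.728%) and 107 (0.928%) were so in the comparison class. The members' sums held 673436 UMIs in WT and 625760 in Cgas KO, against 31701719 and 31930726 in the comparison class, and the shares were not compared by a test. Ikzf2 was 1.82-fold higher in Cgas KO members (1.47 to 2.27), against 1.07-fold in the comparison class. Without thinning, an Ikzf2 UMI was seen in nearly equal shares of members, 26.8% in WT and 27.0% in Cgas KO. Cd8a was 1.65-fold higher in Cgas KO members (1.29 to 2.13), against 0.866-fold. It was seen without thinning in 17.9% and 20.6% of members, and 1 Cgas KO barcode held 29 of the 166 Cd8a UMIs there. Nr4a1 was 1.68-fold higher in Cgas KO members (1.39 to 2.02), against 1.09-fold. Genes that stood lower in Cgas KO members included Gbp2, at a ratio of 0.545 (0.366 to 0.799), Mki67 (0.615) and Il7r (0.716). Foxp3 gave a ratio of 0.807 (0.300 to 2.09) in members and 0.696 (0.590 to 0.819) in the comparison class. UMIs of 1 cell are not independent, so these intervals are narrower than the spread between cells.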

How the data were processed

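The authors deposited unfiltered UMI count matrices and filtered TCR contig lists. Per the file headers the matrices come from Cell Ranger 8.0.1, whereas version 7.0 stands in the submitters' processing notes, which also list Seurat 5.1.0 and mm10, and the 2 sources were not reconciled. The contig lists give chains, V, D and J segments, CDR3 nucleotides and UMI counts per barcode, per the file headers. A 3′ kit was used for expression, per the labels' protocols. The members, the lists and the settings were chosen with earlier results of these data known.

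Shares are of barcodes with a UMI, after thinning each barcode at random to 2000 UMIs unless stated, with exact Clopper-Pearson intervals, and ratios carry exact conditional intervals, at 95%. Doublets were reduced by asking for 1 alpha and 1 beta chain, and no caller was run. Free RNA was read in barcodes of 20 to 199 UMIs, where Foxp3 stood at 14.1 CPM (WT) and 11.7 CPM (Cgas KO).

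For the test across genes, counts were summed into 4 sums (class by library) and fitted with edgeR 4.0.16 (R 4.3.3) with TMM scaling, filterByExpr and the library as a block, which leaves 1 residual degree of freedom, and Benjamini-Hochberg adjustment over all genes tested. The 663 TCR and immunoglobulin segment genes were left out. DESeq2 1.42.0 was an alternative. The same fit was run on barcodes with 1 hydrophobic position, after the data were seen. Checked on simulated data for this comparison, with genes changed at random and only the fitted spread added, the fit called 42.4% of genes changed 2-fold among 13041 genes and 63.6% of those changed 4-fold among 13029, with 0 and 2 false calls. Among changed genes with enough counts it called 97.4% and 100%.

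Named genes are those called (up to 10 a direction), the 5 with the smallest p where under 5 were called, a chosen list of Treg, TCR response, coreceptor and maturation genes, and up to 4 more of each gene list. Gene models without a proper symbol, mitochondrial, ribosomal protein, sex-linked and TCR genes are not named. A gene not passing is given by its values only. Other steps used Python 3.11.15, numpy 2.4.6, scipy 1.17.1 and pandas 2.3.3.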

Additional observations from a re-analysis of the deposited data

Results flagged for a closer look

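In Cgas KO, 10.9% of paired barcodes shared both CDR3 nucleotide sequences with another barcode of the library, against 0.326% in WT. This signal lies outside the comparison of classes. Among Cgas KO members the share was 11.1% and in their comparison class 10.9%, so the classes were touched alike. Logged UMI totals within the Cgas KO pairs correlated with r = 0.657 over 502 pairs, a description of barcodes of 1 library. In 84 pairs both barcodes had an Ikzf2 UMI, and in 73 pairs 1 had. Its part in the results was not tested beyond the values with 1 barcode per receptor.

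The ratio of barcodes with an Ikzf2 UMI, members over comparison, was 1.19 (0.779 to 1.74) in Cgas KO and 0.973 (0.583 to 1.53) in WT. Without thinning the ratios were 1.05 (0.724 to 1.47) and 1.14 (0.785 to 1.61), both above 1, so the opposite directions hold for the thinned counts only. The intervals overlap, and with 1 library per genotype the difference was not tested.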

How the results depend on the processing

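The shares of members changed where the residue set did, to 0.953% (WT) and 0.936% (Cgas KO) for phenylalanine, isoleucine, leucine, valine and tryptophan alone, and to 3.10% and 3.08% with alanine and cysteine added. For beta CDR3s of 13 to 15 residues the Cgas KO share was 1.05% and the Ikzf2 ratio 0.780 (0.482 to 1.20). The other 54 of 60 values of shares and ratios stayed within their first 95% interval.

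The count of genes called higher, 1, became 0 without barcode sequences found in both libraries, with the narrower and the wider residue set, with contigs of at least 3 UMIs, under library totals, without the library block, and without the 1 barcode that held most Plac8 UMIs, a setting added after the data were seen. The log2 ratio of Plac8 in these settings was 3.23, 3.72, 2.19, 2.26, 3.32, 3.31 and 2.08, in that order. It became 2 (with 2 lower) at 3000 UMIs, 4 (with 1 lower) at 13 to 15 residues, 3 (with 8 lower) with no low-count filter, and 10 (with 3 lower) among barcodes with a Cd4 and no Cd8b1 UMI. That last setting leaves out the barcode named above, and Plac8 then had 0 member UMIs (fitted log2 ratio -7.03, no bound). Of the 10 genes 5 were on the cell cycle list, such as Top2a (log2 ratio 0.85) and Mki67 (0.84). The 3 lower were Nr4a1 (-0.59), Rgcc (-0.58) and Klf2 (-0.29). Klf2 also passed as lower at 3000 UMIs (-0.28) and without the filter (-0.25). Cd8a passed as higher in those same settings (0.51 and 0.49). Of 639 values of 40 named genes under these settings 53 had the other sign and 13 newly passed. The causes were not tested.

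With 1 residual degree of freedom, few members and UMIs concentrated in single barcodes, the test has little hold on genes of low count. Depth limits the share of Foxp3, which rests on 7 thinned member barcodes. Leaving out either library leaves values with no test.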

Other observations

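Among paired barcodes with UMIs of both Cd4 and Cd8b1, members were 23 of 1012 in WT (2.27%, 1.45 to 3.39%) and 12 of 1071 in Cgas KO (1.12%, 0.580 to 1.95%), against 1.48% and 1.37% of all paired barcodes. Among barcodes with Cd8b1 and no Cd4 UMI they were 15 of 1164 (1.29%) and 20 of 1223 (1.64%). Barcodes with 1 hydrophobic position were 26.0% of the WT and 20.7% (17.5 to 24.3%) of the Cgas KO barcodes with a Mki67 UMI, against 26.7% and 25.9% of all paired barcodes. Members were 1.72% (0.746 to 3.36%) and 1.73% (0.831 to 3.15%) of those barcodes. Epcam, listed as an epithelial marker, was seen in 6 WT and 6 Cgas KO members, at 8.91 and 11.2 CPM against 5.74 and 6.04 CPM.

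Where only 1 position was hydrophobic, Foxp3 was seen without thinning in 71 of 2046 barcodes with position 6 hydrophobic (3.47%, 2.72 to 4.36%) and in 67 of 2547 with position 7 hydrophobic (2.63%, 2.04 to 3.33%). Cd8a was seen in 16.3% (14.8 to 18%) and 19.3% (17.8 to 20.9%) of them. Both libraries are pooled in these values, and the differences were not tested.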
